A study of Mus musculus with 4 samples.

Results

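Cell division genes by cycle phase are described here, 36 genes listed by symbol and looked up among the 48526 gene identifiers of the deposited table. All 36 were matched to 1 identifier each. Of these, 15 act mainly at the passage from G1 into S phase and in DNA replication (G1/S members), and 21 act mainly in G2 phase and mitosis (G2/M members). RNA was sequenced from LPMCs, mononuclear cells taken from the lamina propria under the gut lining, of mice into which CD4 T cells had been transferred. In 2 samples the transferred CD4 cells were wild type (wt), and the labels record pronounced colitis. In the other 2 samples they were Hobit x Blimp DKO cells, double knockout for the transcriptional repressors Hobit and Blimp-1, and the labels record mild colitis. The groups are called wild type and DKO below, but only the transferred cells differ by genotype, and cells of the host may be present as well. The sources used here do not give the strain, age or sex of the mice, or the time after transfer.

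A cell that is to divide first loads the Mcm helicase onto its replication origins, then copies its DNA in S phase and builds a spindle in mitosis. Transcripts of the replication genes are switched on by E2F factors late in G1, and those of the mitotic genes by the MuvB complex with B-Myb and Foxm1 in S and G2. In the inflamed gut, expanding T cells, macrophage and neutrophil precursors, stromal cells and the crypt epithelium can all divide, so a bulk sample does not say which cells carried these transcripts. In such samples fewer dividing cells and less RNA per dividing cell cannot be told apart.

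The phases differ in the DNA before their genes, which is shown first because it does not rest on the rlog values. The genes were sorted by phases whose control by E2F and MuvB is described above. These sequences are therefore no independent check of the split. RefSeq windows of GRCm38.p6, from 250 bases before to 50 bases after the transcription start, were at hand for 30 of the 36 members. An E2F-type sequence, TTTNNCGC on either strand, was in the windows of 7 of 13 G1/S members (Mcm3, Mcm5, Mcm6, Mcm7, Cdc6, Cdt1 and Tyms) and of 1 of 17 G2/M members (Cdk1). Of all 32851 windows 5.17% held it. The cell cycle homology region, TTTGAA on either strand, through which MuvB binds, was in 1 of 13 G1/S windows (Mcm2) and in 12 of 17 G2/M windows, against 17.9% of all windows. The CCAAT box, the binding sequence of NF-Y, was in 7 of 13 and 15 of 17 windows, against 37.4% of all. Of the 13184 windows of genes tested below, 7.84% held the E2F-type sequence, 12.5% the TTTGAA sequence and 37.1% the CCAAT box. The split was seen again, less sharply, in other genes of the phases. There the CCAAT box was in 25 of 43 G1/S windows and in 42 of 58 G2/M windows. Among 43 other G1/S genes with a window 17 held the E2F-type sequence and 9 the TTTGAA sequence, and among 58 other G2/M genes 12 and 38 did. A match is only a match of letters, and its absence says nothing about a factor.

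Below are the 150 bases just before the RefSeq start, 5′ to 3′ on the gene's strand, with capitals for any of these 3 sequences on either strand. Overlapping matches run together. For each of the 8 roles used below, the member with the smallest p that had a window is shown, whatever its motifs. Mcm6, Cdk1, Ccnb2 and Cdc20 were added because they show the arrangements best. The G1/S members are given first.
Mcm2 (chr6:88898781-88898930, minus strand): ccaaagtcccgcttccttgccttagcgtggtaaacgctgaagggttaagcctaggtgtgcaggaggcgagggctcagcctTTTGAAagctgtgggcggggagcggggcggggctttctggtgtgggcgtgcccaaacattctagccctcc
Mcm6 (chr1:128359706-128359855, minus strand): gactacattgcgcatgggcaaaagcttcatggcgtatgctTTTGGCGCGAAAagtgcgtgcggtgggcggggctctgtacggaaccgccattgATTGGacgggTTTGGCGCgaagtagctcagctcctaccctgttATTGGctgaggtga
Rrm2 (chr12:24708104-24708253, plus strand): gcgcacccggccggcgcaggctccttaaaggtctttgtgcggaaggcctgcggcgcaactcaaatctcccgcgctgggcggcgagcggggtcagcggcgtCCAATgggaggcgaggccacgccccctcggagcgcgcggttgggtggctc
Ccne1 (chr7:38107491-38107640, minus strand): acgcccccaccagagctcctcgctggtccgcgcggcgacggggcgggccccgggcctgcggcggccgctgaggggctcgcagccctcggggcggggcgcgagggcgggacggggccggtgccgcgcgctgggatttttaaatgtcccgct

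Mcm6 has E2F-type sequences on both strands in 1 overlapping block and a further one closer to the start. Each of the other G1/S stretches shows at most 1 match of any kind. The G2/M stretches follow.
Ccnb1 (chr13:100786487-100786636, minus strand): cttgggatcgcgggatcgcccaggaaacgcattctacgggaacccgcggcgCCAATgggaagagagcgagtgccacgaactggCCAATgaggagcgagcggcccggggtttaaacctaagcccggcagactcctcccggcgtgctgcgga
Ccnb2 (chr9:70421555-70421704, minus strand): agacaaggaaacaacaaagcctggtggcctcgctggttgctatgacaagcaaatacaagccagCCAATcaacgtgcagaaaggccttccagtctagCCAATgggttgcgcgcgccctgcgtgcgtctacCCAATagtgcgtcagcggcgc
Cdk1 (chr10:69352913-69353062, minus strand): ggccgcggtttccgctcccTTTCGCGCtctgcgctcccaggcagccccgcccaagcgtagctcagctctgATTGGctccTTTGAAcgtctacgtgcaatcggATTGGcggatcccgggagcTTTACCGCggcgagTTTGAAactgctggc
Birc5 (chr11:117849087-117849236, plus strand): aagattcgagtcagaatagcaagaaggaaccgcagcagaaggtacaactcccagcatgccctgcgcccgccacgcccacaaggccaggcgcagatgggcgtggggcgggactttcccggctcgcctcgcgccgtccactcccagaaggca
Bub1b (chr2:118598061-118598210, plus strand): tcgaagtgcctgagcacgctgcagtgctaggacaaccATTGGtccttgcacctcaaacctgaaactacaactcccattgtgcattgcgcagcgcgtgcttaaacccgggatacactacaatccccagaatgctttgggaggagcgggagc
Cdc20 (chr4:118437344-118437493, minus strand): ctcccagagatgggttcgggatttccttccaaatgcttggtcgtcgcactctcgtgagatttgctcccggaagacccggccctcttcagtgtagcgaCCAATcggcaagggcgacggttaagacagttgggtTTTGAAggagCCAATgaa
Nusap1 (chr2:119618148-119618297, plus strand): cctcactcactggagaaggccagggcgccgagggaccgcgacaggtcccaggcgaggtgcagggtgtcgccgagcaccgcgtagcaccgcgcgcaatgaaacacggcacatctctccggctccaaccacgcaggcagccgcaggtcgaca
Hmgb2 (chr8:57511693-57511842, plus strand): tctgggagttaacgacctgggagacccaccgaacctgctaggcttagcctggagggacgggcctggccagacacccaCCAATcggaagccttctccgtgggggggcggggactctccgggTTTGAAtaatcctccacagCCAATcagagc

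Cdk1 carries all 3 kinds of sequence, Cdc20 and Hmgb2 a TTTGAA sequence between CCAAT boxes, and Birc5 and Nusap1 none of them. Ccnb2 has a row of 3 CCAAT boxes, and its TTTGAA sequences lie outside the stretch shown, as does that of Bub1b.

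Values are on the rlog scale, the regularized log2 of DESeq2, in which differences are shrunk towards 0, above all for genes with few reads. Depth per sample is unknown, and rlog is not per length, so levels of different genes are not compared. Between the groups, 13528 genes whose rlog averaged 4 or more were tested in limma, with Benjamini-Hochberg adjustment over all of them and a threshold of 0.05. All 36 members were among them, each above the minimum in every sample. A gene is said below to have risen or fallen in DKO only where it passed. The labelled cells were checked by markers. All 10 T cell markers were tested, with Cd3e at 10.59 to 11.04, while the B cell marker Ms4a1 lies below 0 in all 4 samples. Of 7 markers of B cells and plasma cells 2 averaged high enough to be tested, so Ms4a1 does not stand for them all. Epcam, an epithelial gene, stood at 10.75 to 11.05. Since no label ties the replicates to separate mice, the p-values rest on how far these samples spread, which may be technical.

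Almost none of the division genes passed the test. Ccna2, which encodes cyclin A2, the cyclin of S and G2 phase, was the member that fell (1 of 36), and 0 rose. Of all tested genes 14.8% passed, 4.85% as falls and 9.92% as rises. At an unadjusted p under 0.05, 8 members were below wild type (3 G1/S and 5 G2/M) and 0 above, against 12.1% and 14.4% of all tested genes. The signs leaned one way, since 35 of 36 differences were below 0, as were 55.3% of those of all tested genes. That lean depended on the samples, with 24 of 36 below 0 without DKO replicate 1 and 27 without wild-type replicate 1. The count was 36 without DKO replicate 2 and without wild-type replicate 2. With quantile normalization it was 31 and with median centring 36. The share of all tested genes below 0 was not taken for these settings. Members share the same 4 libraries, so these signs are not independent of each other. The median difference of DKO minus wild type was -0.18 over the members, -0.12 over the G1/S members and -0.19 over the G2/M members, beside -0.022 over all tested genes.

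**Figure D1:**
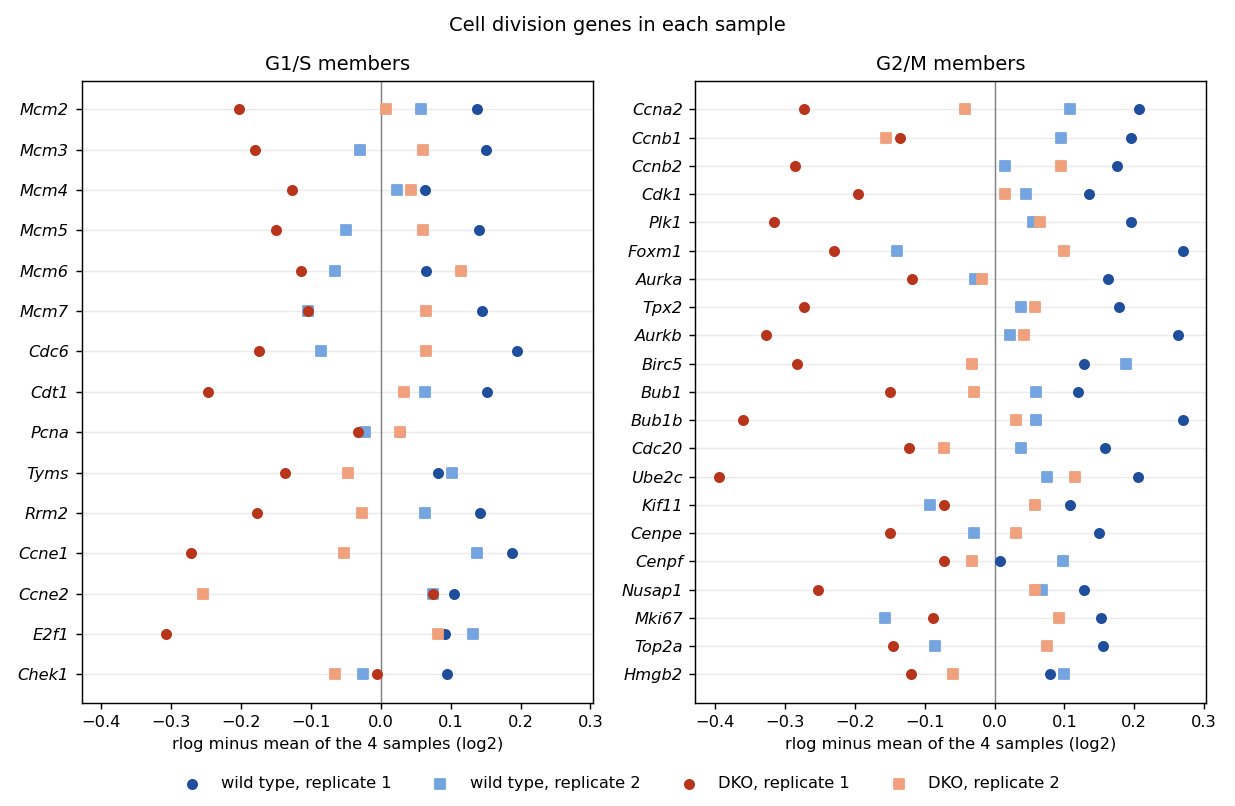
Each row is a member and each point is 1 sample, as its rlog minus the gene's mean over the 4 samples (log2). Wild-type replicates are blue and DKO replicates red or orange. DKO replicate 1 is the lowest point in 30 of 36 rows and wild-type replicate 1 the highest in 29, while DKO replicate 2 lies above wild-type replicate 2 in 18.

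Within each group the 2 samples differed for many members, though the groups did not overlap for 17 of 36. DKO replicate 1 was lowest for 30 of 36 members, against 33.0% of all tested genes, and wild-type replicate 1 was highest for 29, against 24.2%. Both held at once for 23 members and for 13.3% of all tested genes. DKO replicate 2 stood above wild-type replicate 2 for 18 members and below it for the rest. It stood above for 6466 of all 13528 tested genes, a similar share. The groups did not overlap for 17 members, all lower in DKO (7 G1/S and 10 G2/M), against 30.3% of all tested genes in that direction. The median deviation of the G1/S members from the gene means was 0.14 and 0.021 in wild-type replicates 1 and 2 and -0.15 and 0.034 in the DKO replicates. Over the G2/M members it was 0.16, 0.041, -0.20 and 0.031 in the same order. Both phases therefore had the same highest and lowest sample, and their medians differed within a sample by no more than 0.05. No test was made of the difference between phases, since members are not replicates.

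The number of members that passed changed with the samples kept, and most of all without DKO replicate 2. Without it, 15 members fell, 5 of the G1/S and 10 of the G2/M members, against 9.03% of all tested genes as falls in that fit, and the medians were -0.23 for G1/S and -0.29 for G2/M members. Bub1b and Ube2c then had differences of -0.53 and -0.54 (adjusted p = 0.000249 and 0.000144). Without DKO replicate 1, 0 members passed, against 5.46% of all tested genes as falls, and the medians were -0.03 for G1/S and -0.069 for G2/M members. With a single DKO sample, these fits take its variance from the wild-type pair and from all genes.

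**Figure D2:**
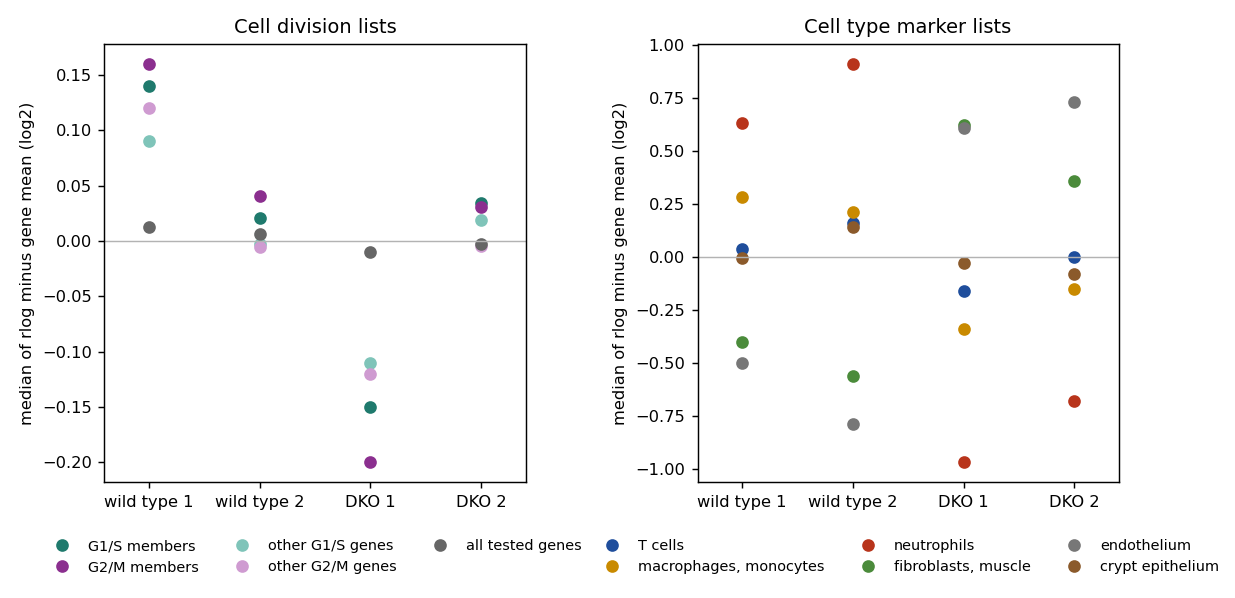
Each point is the median over a gene list of rlog minus the gene's mean (log2) in 1 sample, for the division lists on the left and for marker lists of cell types on the right, on separate scales. On the left the lists spread from -0.20 to 0.16 with DKO replicate 1 lowest, and on the right neutrophil markers are high in both wild-type samples and stromal and endothelial markers in both DKO samples.

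Among the licensing genes, which load and form the replicative helicase, none passed, and the differences ran from -0.21 to -0.002 (8 genes). Mcm6, a helicase subunit, stood at 11.43 and 11.30 in wild-type replicates 1 and 2 and at 11.25 and 11.48 in the DKO replicates. Its range within DKO spanned both wild-type values, and its difference of -0.002 had a 95% interval of -0.21 to 0.21 (adjusted p = 0.993 in limma). Mcm2 was at 10.15 and 10.07 in wild type and at 9.81 and 10.02 in DKO (difference -0.19, SE 0.0908, adjusted p = 0.205). Its groups did not overlap, nor did those of Cdt1, the licensing factor that loads the helicase with Cdc6. Cdt1 had values of 9.85 and 9.76 in wild type and of 9.45 and 9.73 in DKO (difference -0.21, adjusted p = 0.207). For the remaining subunits Mcm3, Mcm4, Mcm5 and Mcm7, and for Cdc6, the groups overlapped, with differences of -0.12, -0.083, -0.092, -0.04 and -0.11. The order of samples was the same for all 8 in 1 respect, that replicate 1 was the higher of the wild-type pair and the lower of the DKO pair.

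The genes of the fork and of nucleotide supply split. Pcna, the sliding clamp of the DNA polymerases, stood at 11.84 and 11.79 in wild type and at 11.78 and 11.84 in DKO. Its difference of -0.0049 had an interval of -0.18 to 0.17, the narrowest among the members. Tyms, which makes thymidylate, was at 9.32 and 9.34 against 9.10 and 9.19. Rrm2, the regulated subunit of ribonucleotide reductase, was at 10.58 and 10.50 against 10.26 and 10.41. Both had groups that did not overlap, with differences of -0.19 (adjusted p = 0.182) and -0.21 (adjusted p = 0.14).

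Of the genes of entry into S phase, Ccne1 had the smallest p of the G1/S members. This gene of cyclin E1, the partner of Cdk2 at the G1/S switch, was at 7.96 and 7.91 in wild type and at 7.5 and 7.72 in DKO. The difference of -0.33 (SE 0.108, 95% interval -0.56 to -0.089) missed the threshold (adjusted p = 0.0702). It passed with a robust variance estimate (adjusted p = 0.0479) and with quantile normalization (adjusted p = 0.0472). The paralog Ccne2 had another pattern, with 7.30 and 7.27 in wild type, 7.27 in DKO replicate 1 and 6.94 in DKO replicate 2. E2f1, the activator of these genes, was at 8.27 and 8.31 in wild type, 7.87 in DKO replicate 1 and 8.26 in DKO replicate 2, so 1 sample held nearly all of its difference of -0.22 (adjusted p = 0.291). Chek1, the checkpoint kinase of stalled forks, overlapped between groups (difference -0.07, adjusted p = 0.743).

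The mitotic cyclins and their kinases held the gene that passed. Ccna2 had rlog values of 10.49 and 10.39 in wild-type replicates 1 and 2 and of 10.01 and 10.24 in the DKO replicates, with no overlap. It fell by 0.32 on the log2 scale (SE 0.0931, 95% interval -0.52 to -0.11, adjusted p = 0.0424), to 0.802 times the wild-type level. That call was lost without wild-type replicate 1, without wild-type replicate 2 and without DKO replicate 1 (adjusted p = 0.226, 0.0746 and 0.167). It was also lost without a variance trend, with no filter on low values and with quantile normalization (adjusted p = 0.088, 0.252 and 0.0881). Exosc9, which is transcribed on the opposite strand and overlaps Ccna2, was tested too. In all, 6 members are overlapped by a tested gene on the opposite strand, namely Ccna2, Mcm7, Ccne2, Plk1, Cdc20 and Nusap1. The sources used here do not say whether reads were counted by strand.

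Cyclin B, which drives entry into mitosis, is encoded by Ccnb1 and Ccnb2. Ccnb1 stood at 8.19 and 8.09 in wild type and at 7.86 and 7.84 in DKO, both pairs tight and apart (difference -0.29, SE 0.0967, adjusted p = 0.0737). It passed with quantile normalization (adjusted p = 0.0494). Ccnb2 was at 9.51 and 9.35 in wild type, at 9.05 in DKO replicate 1 and at 9.43 in DKO replicate 2, between the wild-type values (difference -0.19, adjusted p = 0.361). Their kinase Cdk1 had a difference of -0.18, the mitotic kinase Plk1 of -0.25 and Foxm1, the transcription factor of mitotic genes, of -0.13, with adjusted p = 0.266, 0.25 and 0.637. Foxm1 spread more within wild type (8.69 and 8.28) than between the group means (8.48 and 8.36).

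Birc5, encoding survivin, which holds Aurora B at the centromere, came closest to the threshold of those that missed it. It stood at 9.81 and 9.87 in wild type and at 9.40 and 9.65 in DKO, with a difference of -0.31 (SE 0.0953, 95% interval -0.52 to -0.10, adjusted p = 0.0507). With a robust variance estimate, with median centring and with sample weights it passed (adjusted p = 0.0309, 0.0407 and 0.0418). Aurkb, the Aurora B kinase itself, was at 8.83 and 8.59 against 8.24 and 8.61, so that DKO replicate 2 lay within the wild-type range. Aurka, the spindle pole kinase, and Tpx2, its activator on microtubules, overlapped likewise, with differences of -0.13 and -0.22.

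The spindle checkpoint delays anaphase until every chromosome is attached, and Cdc20 and Ube2c work with the anaphase-promoting complex that ends the delay. Bub1b, which encodes the checkpoint protein BubR1, had the lowest difference of the members together with Ccne1, -0.33 (SE 0.123, adjusted p = 0.104). Its values were 9.89 and 9.68 in wild type, 9.26 in DKO replicate 1 and 9.65 in DKO replicate 2, so DKO replicate 2 lay just under the lower wild-type sample, and the DKO pair had an SD of 0.278. Bub1 and Cdc20 had differences of -0.19 each with tighter DKO pairs (adjusted p = 0.225 and 0.202). Ube2c, the ubiquitin-conjugating enzyme, had the widest DKO pair, 9.19 and 9.70, beside 9.79 and 9.66 in wild type (difference -0.28, SE 0.139, adjusted p = 0.23).

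The spindle motor and kinetochore genes Kif11, Cenpe, Cenpf and Nusap1 had differences of -0.017, -0.12, -0.11 and -0.19. Kif11, the motor that pushes the spindle poles apart, was at 10.18 and 9.98 in wild type and at 10.00 and 10.13 in DKO, with DKO inside the wild-type range (95% interval -0.22 to 0.19). Mki67, the gene of the proliferation marker Ki-67, stood at 12.21 and 11.90 in wild type and at 11.97 and 12.15 in DKO. Its difference was 0.0057, the 1 above 0 among the members, with an interval of -0.24 to 0.25 (adjusted p = 0.985), and its sign turned with median centring (-0.0044). Top2a, the topoisomerase that untangles sister chromatids, also had DKO values (11.75 and 11.97) that interleaved with wild type (12.05 and 11.81). Hmgb2, a chromatin protein, was at 12.77 and 12.79 against 12.57 and 12.63, a small gap with tight pairs (difference -0.18, adjusted p = 0.221).

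**Figure D3:**
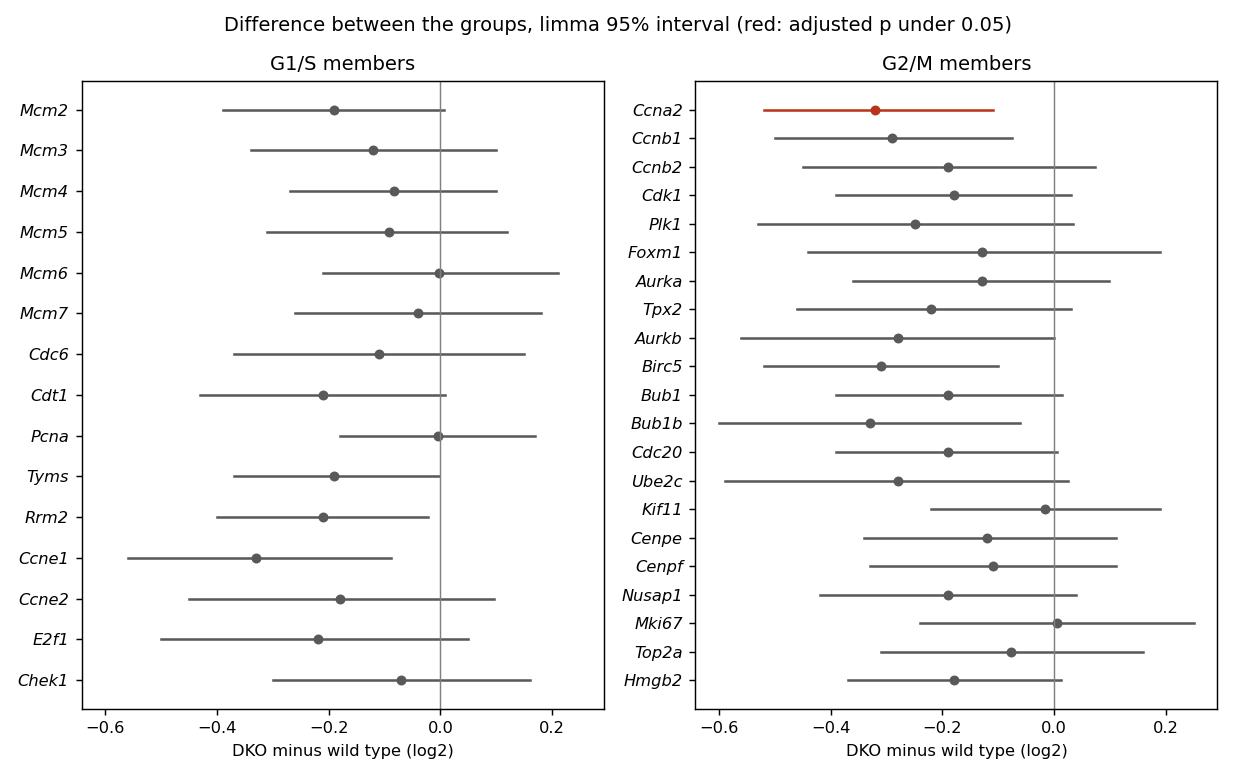
Each row is a member, with the point at the difference of DKO minus wild type (log2) and the bar for its 95% interval in limma. Of 36 bars 28 include 0, and Ccna2, in red, is the member with an adjusted p under 0.05.

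The intervals say how large a difference the 4 samples could hold. Of the 36 intervals 28 included 0, and 28 had a lower end above -0.5. The lowest lower end was -0.60, for Bub1b, and the highest upper end was 0.25, for Mki67. Since rlog shrinks differences, these bounds hold on its scale only.

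Differences tended to be more negative for members with shorter exons. Over the 36 members the Spearman correlation of the difference with exon length was 0.45 (Pearson 0.40 with log2 length), 0.29 over the 15 G1/S and 0.58 over the 21 G2/M members. Over the 55 other G1/S genes it was 0.049 and over the 68 other G2/M genes 0.27. Over 13507 tested genes with a length it was 0.24. These correlations run across genes of the same 4 libraries, and genes are not independent replicates. The exon length of Cenpf is 15433 bases, that of Mki67 10061 and that of Top2a 9013, against 1531 for Ccnb2 and 2600 for Ube2c. Pcna went against that order, with 2400 bases and a difference of -0.0049. With the trend on length removed, an alternative chosen after seeing the data, Ccna2 was at -0.29 (adjusted p = 0.0484), Birc5 at -0.27 (adjusted p = 0.0707) and Mki67 at -0.033. The medians were then -0.11 for G1/S and -0.17 for G2/M members.

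**Figure D4:**
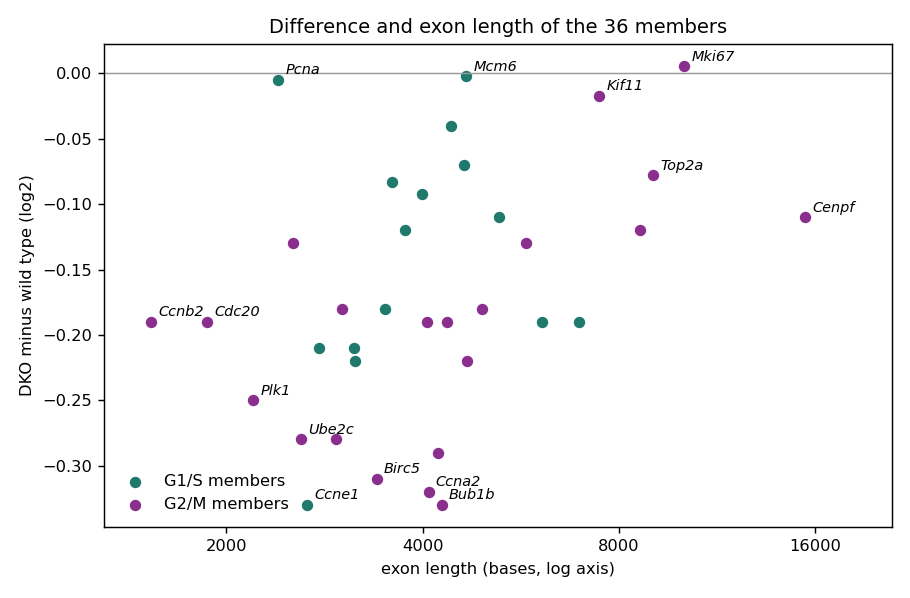
Each point is a member, with its exon length in bases on a log axis and its difference of DKO minus wild type (log2). The longest members, Cenpf, Mki67 and Top2a, have differences of -0.11, 0.0057 and -0.078, and the shortest, Ccnb2, Cdc20 and Plk1, of -0.19, -0.19 and -0.25.

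Other genes of both phases, from lists made with the members, were also tested. At an unadjusted limma p under 0.05, 12.1% of all tested genes lay below wild type and 14.4% above. Of 55 other G1/S genes 0 passed in either direction in limma. At that unadjusted p 4 of them were below and 1 above wild type, and their median was -0.087. The smallest p was that of Cdca7, an E2F target (difference -0.28, adjusted p = 0.0737). Of 68 other G2/M genes 0 passed as well, with 6 below and 0 above at an unadjusted p under 0.05 and a median of -0.14. Lmnb1, which encodes a lamin of the nuclear envelope, had the smallest p there (difference -0.27, adjusted p = 0.0785). DKO replicate 1 was lowest for 42 of the 55 and for 50 of the 68, against 33.0% of all tested genes.

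Genes that hold back or start the cycle included 5 that passed. Of 15 genes of CDK inhibitors and quiescence 3 fell and 1 rose in DKO, and of 9 genes of G1 cyclins and their partners 1 rose. Beside these stand 4.85% of all tested genes that fell and 9.92% that rose, and 1 of 9 is close to the latter. Cdkn1b, an inhibitor that holds Cdk2 in resting cells, was at 11.57 and 11.72 in wild type and at 11.19 and 11.09 in DKO. The groups lay apart, and the gene fell by 0.51 on the log2 scale (SE 0.086, adjusted p = 0.00191), to 0.703 times the wild-type level. Cdkn1a, the inhibitor that p53 switches on, was at 13.07 and 13.14 against 12.61 and 12.78 and fell by 0.41 (adjusted p = 0.0147). Cdkn2d, an inhibitor of Cdk4 and Cdk6, was at 9.81 and 9.82 against 9.28 and 9.56 and fell by 0.40 (adjusted p = 0.019). Each of the 3, named because they passed, had both DKO samples below both wild-type samples. Over all 15 genes the groups did not overlap for 6 that were lower in DKO and for 1 that was higher. Of all tested genes 30.3% were lower in DKO without overlap.

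Cdkn1c and Ccnd1 rose. Cdkn1c, an inhibitor found in stromal and endocrine cells among others, was at 6.14 and 6.06 in wild type and at 6.64 and 6.42 in DKO (difference 0.43, SE 0.12, adjusted p = 0.0331). Ccnd1, encoding cyclin D1, the D cyclin of many stromal and epithelial cells, was at 9.13 and 9.03 against 9.47 and 9.44 (difference 0.38, SE 0.0835, adjusted p = 0.00978). Ccnd2, a D cyclin of lymphocytes, stood at 10.33 and 10.41 against 10.59 and 10.60 and missed the threshold (adjusted p = 0.0749). Cdk4 and Cdk6 were at -0.011 and 0.016, Trp53 at 0.031 and Myc at 0.14, with none of these past the threshold; these and Ccnd2, like Cdca7 and Lmnb1, were picked after their values were seen.

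Several of these calls were lost with 1 sample fewer, mostly at differences of similar size. Without wild-type replicate 1, Cdkn1a, Cdkn1c and Cdkn2d had differences of -0.44, 0.47 and -0.40 with larger SEs and did not pass (adjusted p = 0.058, 0.0738 and 0.0555). Without wild-type replicate 2, Cdkn1a, Cdkn1c, Cdkn2d and Ccnd1 had differences of -0.37, 0.39, -0.39 and 0.33 and did not pass (adjusted p = 0.135, 0.183, 0.0696 and 0.108). Without DKO replicate 1, Cdkn1c and Cdkn2d had smaller differences, 0.32 and -0.26, and did not pass (adjusted p = 0.149 and 0.0683). Cdkn1b passed in each of these fits, and without DKO replicate 2. Cdkn1a, Cdkn1b, Cdkn1c, Cdkn2d and Ccnd1 all did not pass with no filter on low values (adjusted p = 0.125, 0.0898, 0.17, 0.205 and 0.096). With quantile normalization Cdkn1a and Cdkn1c did not (adjusted p = 0.0548 and 0.109), and with the trend on length removed Cdkn2d did not (adjusted p = 0.0523).

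**Figure D5:**
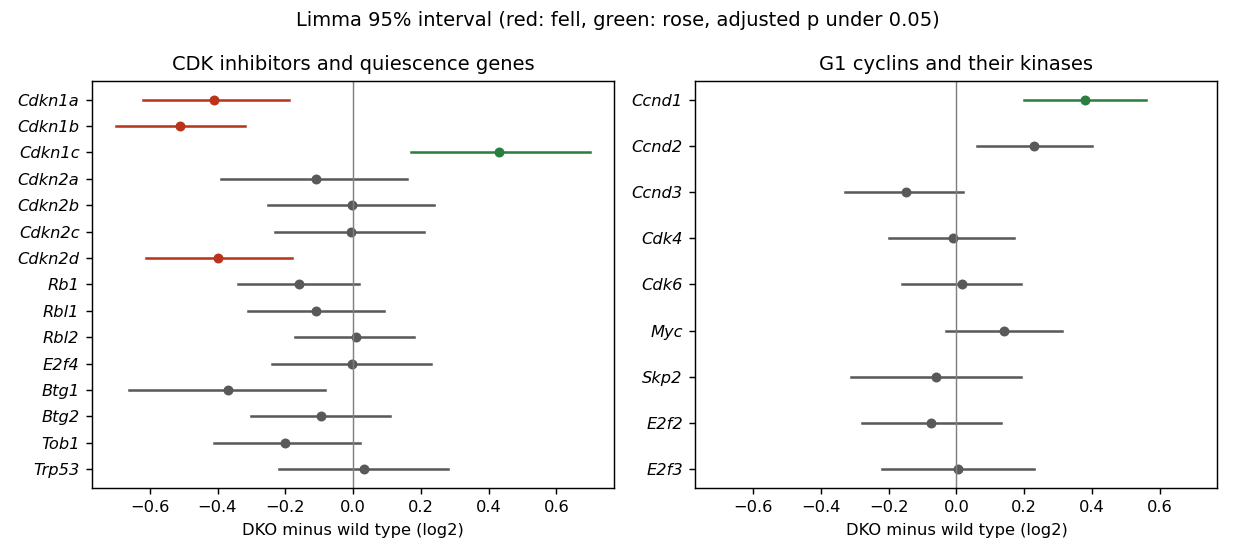
Each row is a gene, with the point at the difference of DKO minus wild type (log2) and the bar for its 95% interval in limma, for CDK inhibitors and quiescence genes on the left and G1 cyclins and partners on the right. Cdkn1a, Cdkn1b and Cdkn2d, in red, fell, and Cdkn1c and Ccnd1, in green, rose.

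Markers of whole cell types also differed between the groups. All 10 neutrophil markers fell (median -1.41), with a summed level of 15.74 to 15.84 in wild type and of 14.18 to 14.62 in DKO on the log2 scale, and 7 of 8 macrophage and monocyte markers fell (median -0.46), with 15.71 to 15.81 against 15.04 to 15.35. All 8 markers of fibroblasts and smooth muscle rose (median 1.0), with 14.68 to 14.82 against 15.67 to 15.83, and all 6 endothelial markers rose (median 1.36), with 11.22 to 11.42 against 12.20 to 12.30. Of 10 T cell markers 0 passed, with a median of -0.14, a summed level of 15.36 to 15.44 against 15.15 to 15.31, and none of them at 0. Of 8 markers of crypt epithelium 1 fell, the stem cell gene Olfm4 (-0.60), with overlapping summed levels of at most 14.18 in wild type and 14.11 in DKO. Sdc1, on plasma cells and epithelium, also fell (-0.74), and of 6 genes of T cell activation Il2ra rose (0.28).

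Those lists were also compared with the order of the samples seen in the division genes. Wild-type replicate 1 was highest and DKO replicate 1 lowest for 6 and 7 of the 8 macrophage and monocyte markers. Of all tested genes these shares were 24.2% and 33.0%. DKO replicate 2 lay below both wild-type samples for all 8 of these markers, for 18 of the 36 members and for 5735 of all 13528 tested genes. Wild-type replicate 1 was highest and DKO replicate 1 lowest for 2 and 7 of 10 neutrophil markers, and for 1 and 1 of 8 markers of crypt epithelium. DKO replicate 1 was lowest for 9 of 10 T cell markers too, but wild-type replicate 2 was the highest sample for 8 of them. The part of these cell types in the values of the division genes, brakes and D cyclins was not tested.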

How the data were processed

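LPMC libraries of 4 samples were compared, 2 per group, named in accession order. The authors deposited 1 table of regularized log2 values (rlog) for 48526 gene identifiers. The submitters' processing notes name STAR 2.5.4a, Subread 1.5.2 with featureCounts, DESeq2 and GRCm38. The table's 2 further columns of values, which match no labelled sample, were not used. Counts were not analysed here, so depth is unknown.

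Genes whose rlog averaged 4 or more were tested with limma 3.58.1 (empirical Bayes with a variance trend, two-sided, Benjamini-Hochberg adjustment, threshold 0.05), after testing on simulated data. Medians over lists carry no test. Alternatives varied the filter, variance model, scaling, threshold and samples. Members and lists were chosen with earlier results of these data known. Named genes were all 36 members, called genes of the other lists and, of the markers, called or lowest genes. Cdca7, Lmnb1, Ccnd2, Cdk4, Cdk6, Trp53 and Myc, which were not called, were added after their values were seen. Cd3e and Epcam, also not called, were named as cell type markers. The alternatives were run for single genes on the members and the 5 called brake and G1 entry genes. Exon lengths came from the GENCODE annotation of GRCm38, and promoters from RefSeq (GRCm38.p6), matched by symbol.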

Additional observations from a re-analysis of the deposited data

How the results depend on the processing

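Among 492 values of 41 genes (36 members and 5 called brake and G1 entry genes) under the alternatives, 420 kept direction and call, 23 lost the call, 20 gained one and 29 changed sign. Those 29 belong to 12 members, none of which passed in a fit where its sign changed. With quantile normalization Mcm6 was at 0.076, Mcm7 at 0.017, Pcna at 0.076 and Kif11 at 0.034. With the length trend removed Mcm6 was at 0.011, Pcna at 0.053 and Mki67 at -0.033, and with median centring Mki67 was at -0.0044. Without the filter on low values, the totals were 181 rising and 25 falling, with 0 G2/M members, 0 brakes falling and 0 rising. With a mean of at least 6, 878 genes rose. The G1/S count that fell was 1 with a robust variance estimate, 1 with quantile normalization and 1 at a threshold of 0.1. The G2/M count was 0 with no variance trend, 2 with a robust estimate, 2 with median centring, 2 with sample weights, 0 at a threshold of 0.01 and 3 at 0.1. At 0.01, 268 genes fell in all, and 1 brake or G1 entry gene rose and 1 fell. At 0.1, 1028 genes fell in all, with 1 other G1/S and 1 other G2/M gene. The cause was not tested.

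Leaving out 1 sample at a time, genes that fell numbered 324 to 1222 in all, 0 to 5 among G1/S members, 0 to 10 among G2/M members, 0 to 7 and 0 to 12 among the other G1/S and G2/M genes, and 1 to 4 among brakes and G1 entry genes, of which 0 to 2 rose. The G1/S median ran from -0.23 to -0.03 and the G2/M median from -0.29 to -0.069. Differences that changed sign ran from -0.24 to 0.0048 for Mcm3, -0.17 to 0.0042 for Mcm4, -0.19 to 0.01 for Mcm5, -0.12 to 0.11 for Mcm6, -0.17 to 0.088 for Mcm7, -0.25 to 0.026 for Cdc6 and -0.035 to 0.026 for Pcna. They ran from -0.37 to 0.001 for Ccnb2, -0.33 to 0.077 for Foxm1, -0.12 to 0.084 for Kif11, -0.15 to 0.16 for Mki67 and -0.20 to 0.043 for Top2a. The exon length alternative was chosen after seeing the data. No paired analysis was possible because the replicate numbers follow accession order and pair no samples. With 2 samples a group and no counts, small differences are not resolved.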
